A study of Saccharomyces cerevisiae with 54 samples.

Results

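Hda1-18myc peaks covered at least 50% of the coding region in all 4 Hda1-18myc libraries at 398 of 6002 nuclear protein-coding genes of budding yeast, 6.63% of those measured. Of these, 136 were ribosomal protein genes, out of 137 in the gene table. The other 262 coding regions, 4.37% of all genes and 4.47% of the 5865 genes that encode no ribosomal protein, are described here. They were chosen by Hda1-18myc peak coverage itself, with the ribosomal protein genes left out by name, so that coverage and every contrast with it are given below as a description. The same coverage in both libraries of the spike-in set alone was found at 8.53% of all genes, and in both of the other set at 7.15%. Coverage means the percentage of bases from start to stop codon, introns included, that lay under peaks of a library.

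Hda1 is the catalytic subunit of a yeast histone deacetylase complex that also holds Hda2 and Hda3, and it removes acetyl groups from histones H3 and H2B and, at some genes, H4. Tup1 is a corepressor, brought to promoters by DNA-binding repressors, that recruits deacetylases including Hda1. The Arb2 domain forms the C-terminal part of Hda1 and binds histones. Histone acetylation normally peaks over promoters and the start of genes, and coding regions that are transcribed at high rates are known for low nucleosome density and for deacetylation by enzymes that travel with RNA polymerase.

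All strains were *Saccharomyces cerevisiae* cultures grown in rich glucose medium (YPD) at 30 °C to an optical density of 0.5–0.6. H3 acetylation (H3ac) and H4 acetylation (H4ac) were mapped by ChIP-seq in *hda1∆* cells (YTK113) and *tup1∆* cells (YTK202), which lack the deacetylase and the corepressor gene, and in their wild type (WT, YSB787). An anti-Myc antibody was used in 3 strains, namely Hda1(arb2∆)-18myc (YTK383), whose Hda1 lacks the Arb2 domain, Hda1-18myc (YTK376), which carries a C-terminal tag of 18 Myc epitopes, and an untagged strain (YTK304). H4ac and Myc were mapped in a set labelled as spiked with fission yeast chromatin and in a set labelled as having no spike-in, while H3ac came from the set with no spike-in, and every group within a set held 2 replicate libraries. The study's methods describe a spike-in in all of its ChIP-seq except H3ac, which differs from these labels, and the sets are named here by the labels.

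The 30 libraries with peak lists were compared by which bases were called as peaks, because the lists hold no read counts, the depth of each library is therefore unknown, and peak heights could not be compared between libraries. Acetylation libraries held 2191–3197 peaks for H4ac and 2501–2841 for H3ac. The *HDA1* coding region had no H4ac peak in any *hda1∆* library, against 14.7–19.1% covered in WT, and *TUP1* had none in any *tup1∆* library, against 2.66–7.28% in WT. The Hda1-18myc libraries held 983 and 909 peaks in the spike-in set and 862 and 846 in the other. A pair of libraries stood apart from their partners. Replicate 2 of Hda1(arb2∆)-18myc in the spike-in set had 59 peaks over 49817 bp, against 628 peaks over 519769 bp in replicate 1, and replicate 1 of the untagged strain in the spike-in set had 235 peaks over 185210 bp, against 10 peaks over 9626 bp in replicate 2. With 2 libraries a group the smallest exact two-sided p is 0.33, so no p is given, and the spread between replicates may be technical since the labels do not say whether replicates were separate cultures. Genes are not replicates, and a list is described by its counts beside the same counts over all genes.

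Many of the bound coding regions beyond ribosomal proteins encode proteins known to be abundant in growing cells. Of 718 genes placed on 19 functional lists, 128 were bound (17.8%), against 4.47% of all genes that encode no ribosomal protein. The share was highest for histones, with 8 of 10 genes bound, followed by glycolysis and fermentation with 16 of 29, translation factors with 19 of 46, cell wall proteins with 16 of 39, chaperones with 14 of 40 and plasma membrane pumps and transporters with 11 of 35. No gene was bound among 36 genes of the proteasome and ubiquitin list, 21 aminoacyl-tRNA synthetase genes, 24 glucose-repressed and galactose genes or 54 meiosis and sporulation genes. Synthetases and proteasome subunits, whose lists held no member, are also proteins of growing cells.

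**Figure D1:**
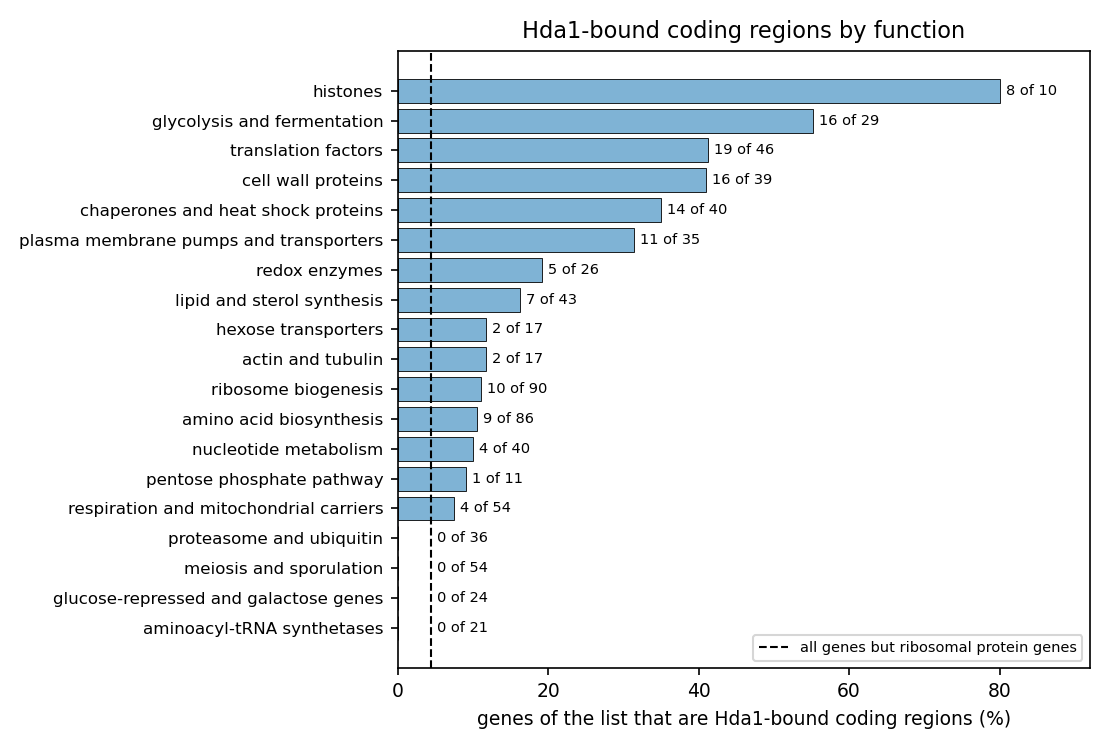
Percentage of the genes on each of 19 functional lists that met the Hda1-18myc coverage rule, with the counts beside each bar and a dashed line at 4.47%, the share over all genes that encode no ribosomal protein. Histones (80%) and glycolysis and fermentation (55.2%) stand at the top, and 4 lists have no bound gene.

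The histone members were *HTA1*, *HTB1*, *HTA2*, *HTB2*, *HHT1*, *HHF1*, *HHT2* and *HHF2*, the 4 divergent pairs that encode the core histones. At least 1 gene of every glycolytic step was bound: *HXK2* and *PGI1* at its entry, *PFK1* and *PFK2* (phosphofructokinase), *FBA1* (aldolase), *TPI1*, *TDH2* and *TDH3* (glyceraldehyde-3-phosphate dehydrogenase), *PGK1*, *GPM1*, *ENO2* and *CDC19* (pyruvate kinase), followed by *PDC1* and *ADH1* of ethanol fermentation, *ALD6* (aldehyde dehydrogenase) and *GPP1* (glycerol phosphatase). Among translation factors the elongation factors were well represented, with *TEF1* and *TEF2* (eEF1A), *EFT1* and *EFT2* (eEF2), *YEF3* (eEF3), *EFB1*, *TEF4* and *HYP2* (eIF5A). Initiation factors included *TIF1* and *TIF2* (eIF4A), *PAB1* (poly(A)-binding protein), *DED1* (an RNA helicase), *SUI1*, *TIF5*, *TIF34* and *NIP1*. *TEF1* and *TEF2*, *EFT1* and *EFT2*, and several other pairs are near-identical copies between which reads could be shared, and 44 members belong to such families.

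Cell wall members were structural mannoproteins (*CCW12*, *CWP1*, *CWP2*, *SED1*, *TIP1*, *CIS3*, *HSP150*, *ECM33*) and enzymes that remodel glucan or chitin (*GAS1*, *BGL2*, *EXG1*, *UTR2*, *SCW4*, *CTS1*, *SUN4*), with *TOS1*. Transporters included *PMA1*, the plasma membrane proton pump, the amino acid permeases *BAP2*, *BAP3*, *TAT1*, *TAT2*, *GNP1* and *MUP1*, and the iron and copper uptake genes *FET3*, *FTR1* and *CTR1*. The chaperones were cytosolic Hsp70 and Hsp90 proteins (*SSA1*, *SSA2*, *SSB1*, *SSB2*, *HSC82*) with their partners *YDJ1* and *SIS1*, the nascent-chain binding pair *EGD1* and *EGD2*, and *CPR1*. Others on that list were *KAR2* and *PDI1* of the endoplasmic reticulum, and *SSC1* and *HSP60* of mitochondria. Ribosome biogenesis, in which ribosomal RNA is processed and assembled, had only 10 of 90 genes bound (11.1%), and 6 of these encode core proteins of small nucleolar ribonucleoproteins (*NOP1*, *NOP56*, *NOP58*, *SNU13*, *NHP2*, *CBF5*). Shares were also lower for amino acid biosynthesis (9 of 86), nucleotide metabolism (4 of 40), respiration (4 of 54) and the pentose phosphate pathway (1 of 11, *TKL1*).

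A further 134 members were on no list, and 39 of them had only a systematic name. Of the 95 named ones, the following were picked by known function after their values were seen. They included the transcription factors *GCN4*, *HAC1*, *RPN4* and *PHO4*, of which *GCN4* and *HAC1* are controlled at the level of translation and splicing, the chromatin proteins *HMO1*, *NHP6A*, *BDF1* and *BDF2*, the last pair holding bromodomains that bind acetylated histones, and the mRNA-binding proteins *NPL3*, *NAB2* and *YRA1*. *PIL1*, *SUR7* and *NCE102* of the plasma membrane domains called eisosomes, *STE2* and *MFA2* of the mating pheromone system, *BMH1* (a 14-3-3 protein) and *GSP1* (the yeast Ran GTPase) were also bound.

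Hda1-18myc peaks ran across most of these coding regions. Coverage was 100% in all 4 libraries at 129 members (49.2%), and the lowest of the 4 values lay from 50% to under 75% at 56 members (21.4%). Just inside the rule, the lowest coverage was 51.6% at each of *COF1*, *PFK1* and *NOG1*, 52.4% at *POP6* and 52.7% at *MMS2*. Just outside were *NNR2* with 49.3%, *ILV3* with 49.1%, *SER3* with 47.5%, *SUI2* with 46.8% and *THS1* with 46.7%. Averaged over members, Hda1-18myc peaks covered 97.8% of the middle 4 of 10 equal parts of the coding region in either set and 96.1% and 96.2% of the last 3. Coverage was 82.9% and 73.6% in the first of those parts and 43.3% and 30.8% in the 400 bp upstream, in the spike-in set and the set with no spike-in. The rule asks for coverage of the coding region, so more coverage there than upstream follows in part from the choice of members.

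The highest point of a peak fell inside the coding region in all 4 libraries at 146 members (55.7%) and in none at 61 (23.3%). Those with none inside included 21 of the 39 members with only a systematic name (53.8%), against 40 of the other 223 members (17.9%). The 39 are short reading frames, 87 to 813 bp long with a median of 189 bp, and the peaks over these 21 were highest outside them. Peaks joined several bound genes elsewhere as well: 16 members (6.11%) had their highest peak in common with a bound ribosomal protein gene in all 4 libraries, 10 more in 1 to 3 libraries, and 44 (16.8%) with another member in all 4. The remaining 184 members (70.2%) shared it with no other bound gene in any library.

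The peaks with the highest fold enrichment over members, ordered by mean rank across the 4 libraries, began with a single peak at chrXII:368507-371796 in replicate 1 of the spike-in set. It covered *AHP1* (a peroxiredoxin), *CCW12* and the systematic-name frames YLR111W and YLR112W, and its enrichment was 6.00 and 4.96 fold in the spike-in set and 6.17 and 6.23 fold in the set with no spike-in. Next came *TDH3*, with 4.56, 4.36, 5.77 and 5.99 fold in the same libraries (chrVII:882123-884158), *IRC13* (chrXV:778218-781223), *PMA1* with the short frame YGL007C-A beside it (chrVII:478992-483694), and *SUN4* with YNL067W-B (chrXIV:499107-503080). In replicate 1 of the spike-in set, members ranged from 1.30 to 6.00 fold with a median of 2.15, and bound ribosomal protein genes had a median of 2.71.

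Members were shorter than most yeast genes. The median coding region was 873 bp, from 87 bp to 6156 bp at *FAS1* (fatty acid synthase), against 771 bp for bound ribosomal protein genes and 1200 bp for all genes. Regions of at most 500 bp made up 36.6% of members and 14.9% of all genes, and those over 2000 bp 8.40% and 22.1%. The rule asks for a share of the coding region, which fewer bases of peak fill in a short one. A small nucleolar RNA gene lay within 500 bp of 16 members (6.11%), against 1.43% of all genes, and a tRNA gene within 500 bp of 14 (5.34%), against 4.67%. The share of genes that were members varied by chromosome between 1.40% on IX and 7.64% on V.

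Without the Arb2 domain, 79 of the 262 members (30.2%) had no peak in any of the 4 Hda1(arb2∆)-18myc libraries, and the share covered varied widely between libraries. In the set with no spike-in, 115 and 69 of the 262 members had at least 50% coverage in the Hda1(arb2∆)-18myc libraries, and 69 (26.3%) had it in both, where 2.33% of all genes did. In the spike-in set the counts were 137 and 17, with 17 (6.49%) in both, where 0.467% of all genes did; the low count is that of the library with 59 peaks. Mean coverage over members was 50.4% and 6.98% in the spike-in set and 43.5% and 24.7% in the other. Among the 136 bound ribosomal protein genes, 131 and 71 had at least 50% coverage in the set with no spike-in and 133 and 11 in the spike-in set. The study's blots found somewhat less of the Arb2-deleted protein than of full-length Hda1, and the part of that in these peak counts was not tested.

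**Figure D2:**
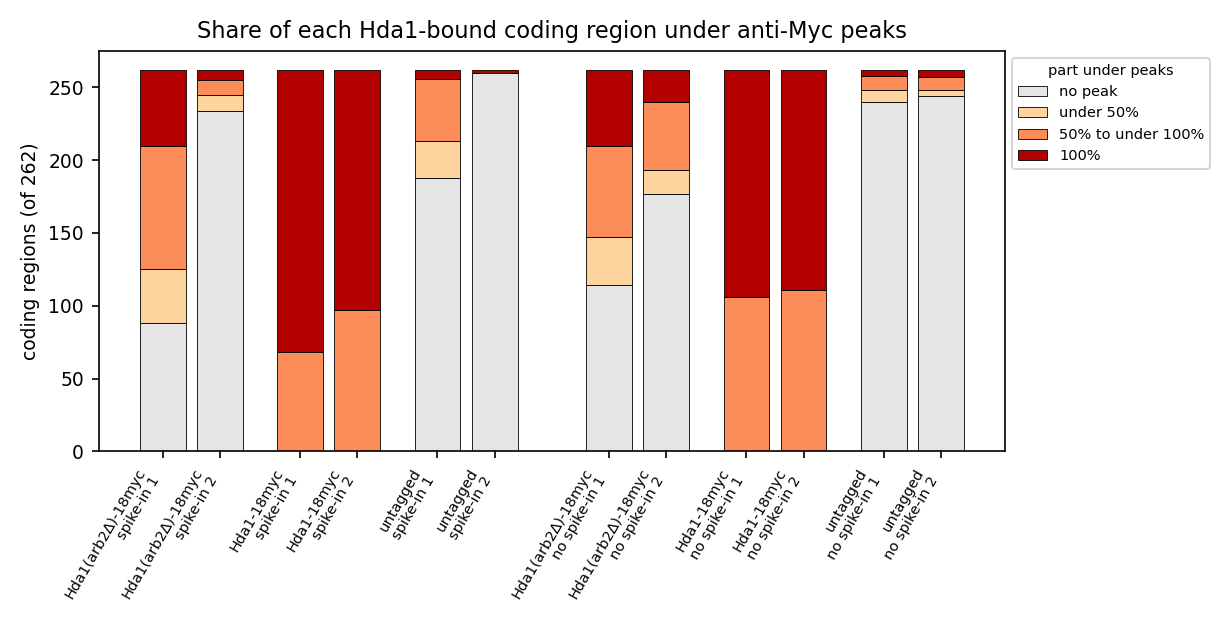
Number of the 262 members in each class of coverage under Myc peaks, for each of the 12 Myc libraries, with Hda1(arb2∆)-18myc left of Hda1-18myc and the untagged strain last. At least 50% coverage is reached by 17–137 members in Hda1(arb2∆)-18myc libraries and by 2–49 in untagged ones, while all members reach it in the Hda1-18myc libraries by choice.

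Members differed in what remained without the Arb2 domain, and those that kept peaks had stronger Hda1-18myc peaks. That strength comes from the peaks that chose the members and is only described. A weak peak has less to lose before it falls under the calling threshold, and the part of this in the difference was not tested. The 17 members with at least 50% coverage in all 4 Hda1(arb2∆)-18myc libraries were *CDC19*, *TEF1*, *TEF2*, *PMA1*, *TDH3*, *FBA1*, *SSA2*, *PDC1*, *CCW12*, *ILV5*, *ADH1*, *ZEO1*, *MTC7*, *TAR1* and 3 unnamed frames. Leaving out the library with 59 peaks, 69 members kept at least 50% in the other 3, and 79 (30.2%) had no peak in any of the 4, against 1 bound ribosomal protein gene (0.735%). The 69 had a median Hda1-18myc enrichment of 2.89 and 2.68 fold in the spike-in set and 3.16 and 3.05 fold in the other, and the 79 without a peak had 1.64, 1.58, 1.66 and 1.61 fold. The 79 also had more WT H4ac, 49.7% and 51.3% of the coding region on average in the spike-in set and the set with no spike-in, against 18.8% and 15.8% in the 69. Their median coding length was 546 bp, against 747 bp in the 69, and the part of length in this contrast was not tested. By function, 10 of 16 glycolysis and fermentation members, 7 of 8 histone members, 7 of 19 translation factors, 4 of 14 chaperones and 0 of 7 lipid and sterol members had at least 50% coverage in both Hda1(arb2∆)-18myc libraries of the set with no spike-in. In both untagged libraries of that set the counts were 5, 0, 1, 0 and 0 in the same order. *FAS1* and *FAS2* (fatty acid synthase) and *OLE1* (the fatty acid desaturase) were among the 7 lipid and sterol members.

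Part of the Myc signal over members was present without a tag. In the set with no spike-in, 14 and 14 members had at least 50% coverage in the untagged libraries and 12 (4.58%) had it in both, where 0.25% of all genes did. In the spike-in set the counts were 49 and 2, with 2 (0.763%) in both, where 0.0333% of all genes did. The 12 were *CDC19*, *PMA1*, *TDH3*, *FBA1*, *PDC1*, *CCW12*, *ILV5*, *ADH1*, *TEF1*, *TAR1* and the frames YDR524W-C and YLR154C-G. All 12 were also among the 17 that kept peaks in every Hda1(arb2∆)-18myc library. *TAR1* and YLR154C-G, which lie in the ribosomal DNA repeat of chromosome XII, had at least 50% coverage in all 4 untagged libraries. Reads from that repeat cannot be assigned to 1 copy.

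Most members had no untagged peak, but members were free of them less often than all genes were. In the 4 untagged libraries 186 members (71.0%) had none, against 96.2% of all genes. With the untagged library of 235 peaks left out, 238 (90.8%) had none in the remaining 3, against 99.3% of all genes. Of the 186, 27 had at least 50% coverage in the 3 Hda1(arb2∆)-18myc libraries and no untagged peak at all. They included histone genes, *TPI1*, *TDH2*, *HYP2*, *SOD1* (superoxide dismutase), *TSA1* (a peroxiredoxin), *CIS3*, *HSP150* and *MTC7*. An untagged peak in any library was found at 42 of the 69 members with peaks in Hda1(arb2∆)-18myc (60.9%), at 33 of the 114 in between (28.9%) and at 1 of the 79 without one (1.27%). How much untagged signal contributes to the Hda1-18myc peaks was not tested.

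Acetylation was not used in the choice of members. In WT cells members lacked H4ac peaks more often than all genes did, and the difference was smaller for H3ac. No H4ac peak touched the coding region in both WT libraries at 145 members (55.3%) in the spike-in set and 146 (55.7%) in the set with no spike-in, against 24.4% and 23.4% of all genes. In all 4 WT H4ac libraries 136 members (51.9%) had none, against 37.5% of bound ribosomal protein genes and 19.5% of all genes. For H3ac, 110 members (42.0%) had no peak in either WT library, against 5.88% of bound ribosomal protein genes and 36.4% of all genes, and mean H3ac coverage in WT was 34.5% and 33.1% over members against 30.7% and 30.5% over all genes. Neither mark was called at 95 members (36.3%), against 16.5% of all genes. Total H3 libraries were not analysed here; the study's methods name total H3 as the control for acetylation, and whether the deposited peaks were called against it was not tested.

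Low WT acetylation was not shared by every member. At 62 of the 262 members at least 50% of the coding region carried H4ac peaks in all 4 WT libraries, against 1934 of all 6002 genes. Of these, 56 members and 1284 of all genes did so for H3ac as well. All 8 histone genes had 100% H4ac coverage in every WT library. At the other end, 13 of 16 glycolysis and fermentation members had no WT H4ac peak in either set, as did 9 of 11 pumps and transporters, and 11 of 16 cell wall members in the spike-in set and 12 of 16 in the other. *TEF1*, *TEF2* and *PMA1* had 100% Hda1-18myc coverage in all 4 libraries and no H3ac or H4ac peak in any *hda1∆*, *tup1∆* or WT library, and *YEF3* had none except for 8.36% H3ac coverage in 1 WT library. The study reports more H4 acetylation in *hda1∆* at these genes, by PCR relative to total H3 at *YEF3* and *PMA1* and in ChIP-seq tracks at *TEF1* and *TEF2*. Peak coverage does not see a change below the peak threshold. Length moved with WT H4ac coverage, but members were lower within each length class: mean WT H4ac coverage in the spike-in set was 43.5% for members of at most 500 bp against 57.8% for all genes of that length, 42.5% against 62.4% up to 1000 bp, 15.0% against 38.8% up to 2000 bp and 2.09% against 14.9% above that. Mean WT H3ac coverage in the same classes was 48.4% for members against 52.3% for all genes, and 51.4% against 48.3% up to 1000 bp. It was 16.7% against 23.5% up to 2000 bp and 6.36% against 7.89% above that.

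Mean coverage of the members by called H4ac peaks differed little between *hda1∆* and WT. It averaged 31.8% and 30.9% in *hda1∆* and 28.9% and 29.8% in WT in the spike-in set, and 31.7% and 32.2% in *hda1∆* and 29.0% and 28.8% in WT in the set with no spike-in. The libraries of the mutant lay above those of WT in both sets, by a mean of 2.03 and 3.02 points, and the median member changed by 0. Of the 145 and 146 members without a WT peak, 132 and 129 had none in either *hda1∆* library. These enter the mean and the median as a change of 0, whatever happened below the peak threshold. The study reports larger H4 acetylation increases in *hda1∆* at highly active genes, from normalised signal. Whether members gained such signal was not tested. Bound ribosomal protein genes differed by 32.2 and 31.5 points, with 55.4% and 51.8% in *hda1∆* against 20.2% and 22.6% in WT in the spike-in set. Over all genes the mean fell by 3.81 and 3.59 points. In *tup1∆* members averaged 34.7% and 36.4% in the spike-in set and 33.0% and 34.2% in the other, above the same WT values by 6.18 and 4.67 points.

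**Figure D3:**
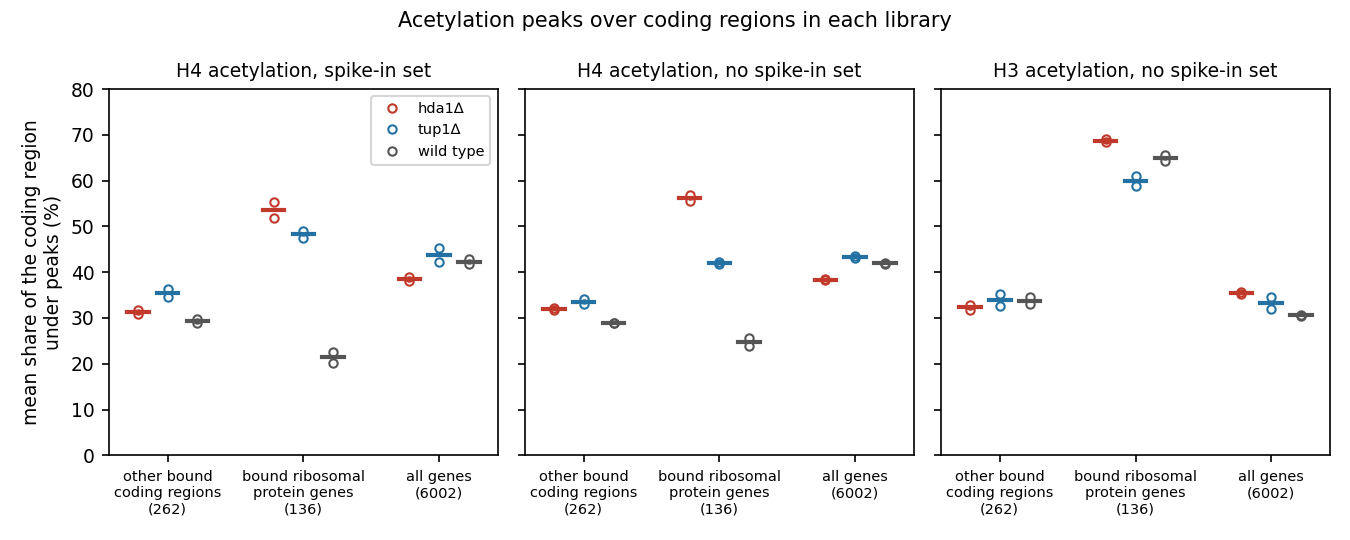
Mean percentage of the coding region under H4ac or H3ac peaks in each library (circles, 2 per strain) with the mean of the pair as a bar, for *hda1∆*, *tup1∆* and WT, in the 262 members, the 136 bound ribosomal protein genes and all 6002 genes. Members stay near 30% H4ac in *hda1∆* and WT, while bound ribosomal protein genes lie at 51.8–56.9% in *hda1∆* and 20.2–25.5% in WT.

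Gene by gene, a coding region was counted as having gained or lost acetylation when each mutant library exceeded each WT library, or fell short of it, by 10 points or more. For H4ac in *hda1∆*, 17 members (6.49%) gained and 5 (1.91%) lost in the spike-in set, where 4.27% of all genes gained and 10.9% lost. In the set with no spike-in, 20 (7.63%) gained and 5 (1.91%) lost, where 4.42% of all genes gained and 12% lost. The bound ribosomal protein genes are part of the genome's gains, and of the 5604 genes that were not bound 3.0% and 2.75% gained in the 2 sets, below the shares of members, a difference that was not tested. The share of members that lost was below that of the genome, and 145 and 146 of the 262 had no WT H4ac peak to lose. Partly covered genes were those neither without a peak nor fully covered in both WT libraries. Of these, 4 of 70 and 4 of 72 members lost, against 559 of 3347 and 637 of 3497 of all genes. Of those fully covered in WT, 1 of 47 and 1 of 44 members lost, against 93 of 1190 and 86 of 1103. Of bound ribosomal protein genes, 71 (52.2%) and 91 (66.9%) gained in the 2 sets and none lost. Of the members without a WT peak, 132 of 145 in the spike-in set and 129 of 146 in the other had none in either *hda1∆* library. From no WT peak 9 members (6.21%) and 7 (4.79%) gained, against 4.85% and 5.56% of all genes without one. Of such bound ribosomal protein genes 43.8% and 57.6% gained, so members without a WT peak were near the genome. Among those partly covered in WT, 8 of 70 and 13 of 72 members gained, against 185 of 3347 and 187 of 3497 of all genes. That difference was not tested.

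Gains in *hda1∆* recurred in part between the sets, which share no library. The 8 members that gained in both, 47.1% of the 17 and 40% of the 20, were *OLA1*, *ARB1*, *SAH1*, *BMH1*, *MIN10*, *BGL2*, *ATP2* and the frame YGL188C-A. Over all genes, the 122 that gained in both made up 47.7% and 46.0% of the sets' gains, and for bound ribosomal protein genes the 62 in common made up 87.3% and 68.1%. *BMH1* had 95.5% and 97.8% H4ac coverage in *hda1∆*, against 0% and 0% in WT, in the spike-in set, and 100% and 100% in *hda1∆*, against 55.8% and 49.8% in WT, in the other. *ARB1*, an ATPase of the ABC family that acts in ribosome biogenesis, had 60.9% and 54.4% in *hda1∆*, against 34.6% and 35.2% in WT, and 87.7% and 86.0% in *hda1∆*, against 38.4% and 37.5% in WT.

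*OLA1*, a P-loop ATPase, was fully covered in *hda1∆* in both sets, against 67.9% and 58.9% in WT in the spike-in set and 75.4% and 77.4% in the other. *ATP2*, the beta subunit of mitochondrial ATP synthase, had 25% and 22.7% in *hda1∆*, against 0% and 0% in WT, and 31.6% and 36.7% in *hda1∆*, against 9.38% and 16.4% in WT. *SAH1* encodes S-adenosylhomocysteine hydrolase, and *BGL2* an endo-glucanase of the cell wall. *SAH1* had 46.5% and 46.7% in *hda1∆*, against 25.1% and 30.7% in WT, and 54.4% and 48.7% in *hda1∆*, against 37.1% and 30.3% in WT, and *BGL2* had 70.1% and 73.4% in *hda1∆*, against 40.9% and 55.7% in WT, and 86.3% and 67.4% in *hda1∆*, against 46.8% and 48.1% in WT. *MIN10* and YGL188C-A had no WT peak in either set, and *BMH1* and *ATP2* had none in the spike-in set. Both *MIN10* and YGL188C-A lie under a peak with a bound ribosomal protein gene. Among the 26 members with such a shared peak in at least 1 library, 4 gained in each set (15.4%), against 13 (5.51%) and 16 (6.78%) of the other 236.

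Several gains were seen in a single set. *PAB1* and *EFT2* gained in the spike-in set, and *PGK1*, *NOP1* (fibrillarin), *PDI1*, *SSB1*, *TIF34* and *ASC1* (the ribosome-associated RACK1 protein) in the set with no spike-in. *PGK1* had 43.6% and 71.4% coverage in *hda1∆*, against 0% and 0% in WT, in that set. Losses recurred at YFR035W-A alone, with no H4ac peak in any *hda1∆* library, against 100% and 100% in WT in the spike-in set and 68.7% and 78.7% in the other. *FUR1*, which acts in uracil salvage, lost in the spike-in set, with 0% and 0% in *hda1∆* against 55% and 60.2% in WT, and *DSE2* lost in the other, with 0% and 0% against 65.0% and 68.7%.

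**Figure D4:**
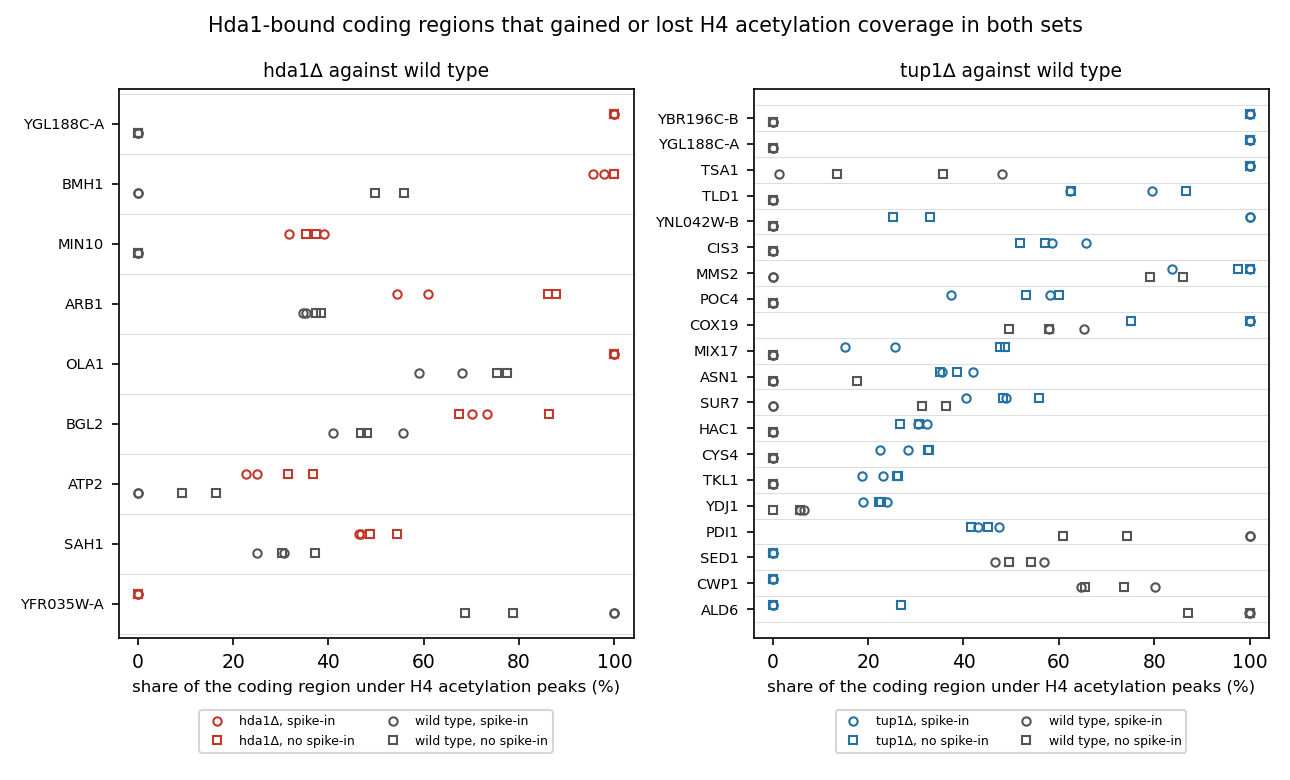
H4ac coverage of the coding region in each library (points, %) for the members that gained or lost in both sets, with *hda1∆* (left panel) or *tup1∆* (right panel) drawn above WT for each gene, circles for the spike-in set and squares for the set with no spike-in. *BMH1* lies at 95.5–100% in *hda1∆*, and *CWP1* and *SED1* have no coverage in any *tup1∆* library.

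Along the gene, coverage was read in the 118 members over 1000 bp. In *hda1∆*, H4ac covered 28.2% and 27.2% of the first 3 of 10 parts in the spike-in set, 11.6% and 12.5% of the middle 4 and 6.01% and 7.28% of the last 3. In WT the same stretches had 23.0% and 25.7%, 8.65% and 10.1%, and 4.94% and 5.10%, each below both *hda1∆* libraries. The set with no spike-in gave the same order, with 13.4% and 14.1% of the middle 4 parts in *hda1∆* against 10.3% and 10.6% in WT, and 9.44% and 9.44% of the last 3 in *hda1∆* against 6.64% and 6.32% in WT. Over all genes of more than 1000 bp, the middle 4 parts had 20.3% and 20.9% in *hda1∆* against 22.2% and 23.3% in WT in the spike-in set, and 17.9% and 18.7% against 20.2% and 20.5% in the other. In the middle 4 parts the *hda1∆* libraries thus lay above WT in these members and below WT over all genes, by a few points and without a test. In the last 3 parts all genes had 15.9% and 16.1% in *hda1∆*, overlapping 15.6% and 16.5% in WT, in the spike-in set, and 14.1% and 14.1% in *hda1∆*, against 14.4% and 14.5% in WT, in the other.

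**Figure D5:**
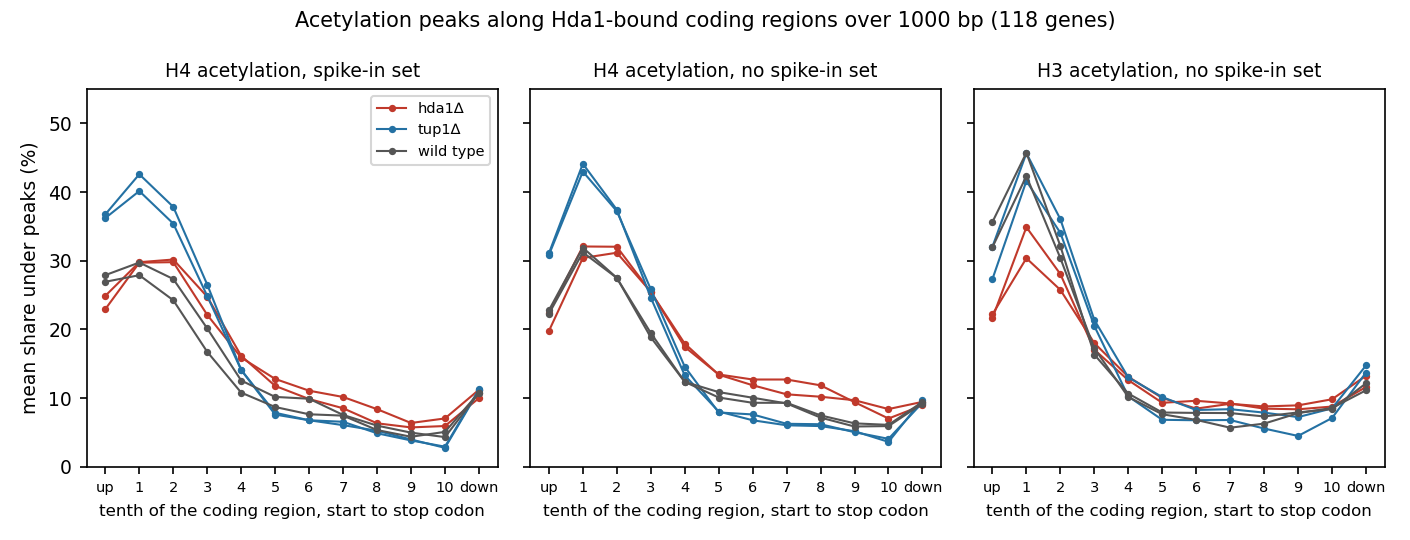
Mean percentage of bases under H4ac or H3ac peaks in the 400 bp upstream (up), 10 equal parts of the coding region from start to stop codon, and the 400 bp downstream (down), in the 118 members over 1000 bp, with a line for each library of *hda1∆*, *tup1∆* and WT. In the middle 4 parts *hda1∆* lies at 11.6–14.1% H4ac and WT at 8.65–10.6%, and upstream *tup1∆* lies at 30.8–36.8%.

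The 400 bp upstream of all 262 members had 31.4% and 30.8% H4ac coverage in *hda1∆*, against 35.8% and 36.8% in WT, in the spike-in set, and 27.6% and 25% in *hda1∆*, against 29.5% and 28.5% in WT, in the other. Upstream of all genes it was 47.3% and 48.3% in *hda1∆*, against 56.8% and 57.5% in WT, in the spike-in set. H3ac upstream of members was 28.5% and 28.1% in *hda1∆*, against 39.8% and 36.5% in WT, while upstream of all genes it was 43.2% and 43.0% in *hda1∆* and 43.9% and 42.6% in WT. The H3ac libraries of *hda1∆* therefore lay below those of WT upstream of members and between them over the genome.

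In *tup1∆* a smaller share of members was called as gaining H4ac once libraries were trimmed to an equal covered length. The cause of that shift was not tested. In the spike-in set 30 members (11.5%) gained and 5 (1.91%) lost, where 7.66% of all genes gained and 5.48% lost. In the set with no spike-in 32 (12.2%) gained and 10 (3.82%) lost, where 8.23% gained and 5.33% lost. Bound ribosomal protein genes gained at 70 (51.5%) and 51 (37.5%). When every library was trimmed to an equal covered length, 8.02% and 8.40% of members gained in *tup1∆* in the 2 sets, where 6.95% and 6.53% of all genes did, and 8.40% and 10.7% gained in *hda1∆*, where 6.28% and 7.98% did. Of the members with no WT peak, 26 (17.9%) and 21 (14.4%) gained, against 17.0% and 18.5% of all genes without one. The 16 members that gained in both sets, 53.3% and 50% of each set's gains, were *TSA1*, *TLD1*, *HAC1*, *CIS3*, *SUR7*, *TKL1*, *CYS4*, *ASN1*, *YDJ1*, *MMS2*, *COX19*, *MIX17*, *POC4* and 3 systematic-name frames. Over all genes, those that gained in both made up 58.9% and 54.9% of the sets' gains.

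*TSA1*, the main cytosolic peroxiredoxin, was fully covered in all *tup1∆* libraries, against 48.1% and 1.35% in WT in the spike-in set and 13.5% and 35.7% in the other. *CIS3* had 58.5% and 65.8% in *tup1∆*, against 0% and 0% in WT, and 51.8% and 57.0% in *tup1∆*, against 0% and 0% in WT. *HAC1*, the transcription factor of the unfolded protein response, had 30.5% and 32.4% in *tup1∆*, against 0% and 0% in WT, and 26.6% and 30.7% in *tup1∆*, against 0% and 0% in WT. At *TSA1* the WT libraries themselves differed widely, whereas *CIS3* and *HAC1* had no WT peak at all. *TKL1* (transketolase) had 18.8% and 23.2% in *tup1∆*, against 0% and 0% in WT, and 26.3% and 26.0% in *tup1∆*, against 0% and 0% in WT.

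The 4 members that lost H4ac in *tup1∆* in both sets, 80% and 40% of each set's losses, were *PDI1*, *SED1*, *CWP1* and *ALD6*. Over all genes, those that lost in both made up 52.6% and 54.1% of the sets' losses. *ALD6* had 0% and 0% in *tup1∆*, against 100% and 99.8% in WT, in the spike-in set, and 26.9% and 0% in *tup1∆*, against 100% and 87.1% in WT, in the other. *CWP1* and *SED1*, both mannoproteins anchored in the cell wall, had no H4ac peak in any *tup1∆* library, against 80.1% and 64.6% in WT at *CWP1* and 46.6% and 56.9% in WT at *SED1* in the spike-in set. Another wall mannoprotein gene, *TIP1*, lost in the set with no spike-in, with 0% and 0% in *tup1∆* against 69.7% and 66.5% in WT. The cell wall list thus moved both ways in *tup1∆* in that set, with *TOS1*, *CIS3* and *HSP150* gaining and *TIP1*, *SED1* and *CWP1* losing among 16 members.

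H3ac over the members averaged 31.8% and 32.9% in *hda1∆* and 35.3% and 32.6% in *tup1∆*, against 34.5% and 33.1% in WT. The *hda1∆* libraries lay below the WT libraries, and those of *tup1∆* overlapped them. Over all genes the averages were 35.1% and 35.7% in *hda1∆* and 34.6% and 32.0% in *tup1∆*, against 30.7% and 30.5% in WT. In *hda1∆* 9 members (3.44%) gained and 14 (5.34%) lost H3ac, where 11.3% of all genes gained and 2.65% lost. When every library was trimmed to an equal covered length, the share that lost was 9.16% of members and 7.58% of all genes. In *tup1∆* 14 (5.34%) gained and 10 (3.82%) lost, where 10.3% gained and 4.97% lost. H3ac gains were thus less frequent among members than over the genome in either mutant, without a test of that difference.

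*TMA19*, which encodes the ribosome-associated homologue of mammalian TCTP, had 83.5% and 88.5% H3ac coverage in *hda1∆*, against 0% and 0% in WT. *ERG3* of ergosterol synthesis was fully covered in *hda1∆*, against 60.7% and 30.5% in WT, and *OLA1* was as well, against 75.1% and 60.7%. These 3 were among the 9 that gained. Several of the 14 losses were of small stretches. *ADH1* had 0% and 0% in *hda1∆*, against 15.3% and 19.1% in WT, *CBF5* (the pseudouridine synthase of ribosomal RNA) had 0% and 0%, against 26.2% and 24.0%, and *DED1*, *NPL3* and *TKL1* likewise fell to 0% in *hda1∆*, against 11.3–12.6% in WT. *MPC2*, a subunit of the mitochondrial pyruvate carrier, had 25.6% and 0% in *hda1∆*, against 100% and 100% in WT, and *TSA1* had 0% and 13.5%, against 38.6% and 60.9%.

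In *tup1∆* H3ac gained at *TLD1*, with 93.6% and 95.9% against 0% and 0% in WT, at *HYP2*, with 82.9% and 82.5% against 50% and 0%, and at *TSA1*, with 100% and 100% against 38.6% and 60.9%. *MPC2* had 5.13% and 29.2% in *tup1∆*, against 100% and 100% in WT, and *ALD6* had 51.5% and 33.1%, against 100% and 66.4%. *CWP1*, without H4ac in *tup1∆*, had 94.9% and 99.3% H3ac coverage there, against 77.8% and 63.3% in WT, so the marks moved in opposite directions at this gene. The *hda1∆* and *tup1∆* comparisons use the same WT libraries, and their values are therefore only set side by side. In the set with no spike-in, H4ac covered *PDI1* (protein disulphide isomerase) to 100% and 100% in *hda1∆* and to 41.7% and 45.2% in *tup1∆*, against 60.9% and 74.3% in WT. *OLA1* had 100% and 100% in *hda1∆* and 62.1% and 61.4% in *tup1∆*, against 75.4% and 77.4% in WT, and *DSE2* had 0% and 0% in *hda1∆* and 88.1% and 89.5% in *tup1∆*, against 65.0% and 68.7% in WT. *TSA1* differed in the same manner for H3ac, with the values given above.

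Of the other genes that the study examined singly, *TKL2*, *STT4*, *GAL1*, *GAL3*, *STE11* and *PCA1* had no Hda1-18myc peak over the coding region in any library, and *HAP1* had 29.3–42.1% coverage, under the 50% asked of members.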

How the data were processed

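The authors deposited MACS2 2.1.0 peak lists, with a score, a fold enrichment ratio over a control, and −log10 p and −log10 q for each peak of each library. Reads had been aligned with Bowtie2 2.2.5 and handled with Picard 2.6 and bedtools 2.26.0, after FastQC 0.11.5, per the submitters' processing notes. The largest q of a peak was 0.0474 in the spike-in set and 0.00987 in the other, so the sets' thresholds differed and the sets were never pooled. The notes name build R64 (sacCer3) and the study's methods R61-1-1; the RefSeq R64 gene table was used, without printing its coordinates, and matched the Hda1-18myc peaks best at a shift of 0 bp over the 398 bound genes. Another 24 of 54 samples (input and total H3) had no peak list here and were not analysed. The study's methods give total H3 as the control for acetylation enrichment; the lists do not name the control used. Coverage per coding region was computed with Python 3.11.15 and NumPy 2.4.6, and tested on simulated data. Bound meant at least 50% coverage, and gained or lost a margin of 10 points between both mutant and both WT libraries. A change inside a called peak or below the peak threshold is not seen by this measure. Named genes were members on the functional lists, written by hand (2 symbols unmatched), the 10 highest by mean rank of fold enrichment, the 5 largest gains and losses of each acetylation comparison, the 5 with the highest lowest coverage over Hda1(arb2∆)-18myc and over untagged libraries, the 5 on each side of the 50% threshold, and genes the study names. Other names, such as those recurring in both sets, were chosen after their values were seen. Members and lists were chosen with earlier results of these data known. Replicate numbers did not pair libraries: deviations of same-numbered libraries correlated between -0.025 and 0.079.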

Additional observations from a re-analysis of the deposited data

Results flagged for a closer look

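*ALD5*, which encodes a mitochondrial aldehyde dehydrogenase, moved in opposite directions in the 2 sets for H4ac in *hda1∆* against WT. Its mean difference was 57.7 points in the spike-in set, with 63.9% and 77.8% of the coding region covered in *hda1∆* against 0% and 26.2% in WT, and -25.6 points in the set with no spike-in, with 0% and 0% in *hda1∆* against 21.0% and 30.3% in WT. Every library of the mutant lay on opposite sides of WT in the 2 sets, and the difference between the sets was not tested.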

How the results depend on the processing

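The number of members, 262, was 259 or 273 with the gene table moved by 200 bp, 206 when 75% coverage was asked and 340 at 25%, and 267–288 with 1 Hda1-18myc library left out. Of 141 alternatives other than a library left out, 120 gave a value within 1.5 times the main one, as did 46 of 60 with a library left out. A margin of 25 points, in place of 10, gave smaller shares (members, with all genes in parentheses): for H4ac in *hda1∆* 2.67% (2.27%) gained and 1.15% (5.1%) lost with spike-in and 3.44% (2.45%) and 0.763% (4.08%) without, in *tup1∆* 7.25% (4.6%) gained with spike-in and 6.49% (4.58%) gained and 2.29% (2.5%) lost without, and for H3ac 0.763% (6.38%) gained and 1.53% (0.916%) lost in *hda1∆* and 1.53% (6.13%) and 1.15% (1.88%) in *tup1∆*. A gene table moved by 200 bp to higher coordinates gave 5.41% (10.5%) and 3.86% (12%) losing H4ac in *hda1∆* in the 2 sets, and to lower coordinates 5.86% (11.1%) gaining H3ac in *hda1∆*. Members at 75% coverage gave 0.971% (10.9%) losing H4ac in *hda1∆* in the spike-in set. With equal covered length in every library, 1.15% lost H4ac in *hda1∆* in either set (6.08% and 6.75%), 9.16% (7.58%) lost H3ac in *hda1∆*, and 3.44% (7.98%) gained H3ac in *tup1∆*. Apart from the effect of a wider margin, the cause of these shifts was not tested.

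Leaving out a library gave, for H4ac losses in *hda1∆*, 3.44–4.96% of members (14–16.4% of all genes) with spike-in and 2.67–3.44% (15–16.2%) without, and for losses in *tup1∆* in the spike-in set 2.29–3.44% (7.23–9.8%). For H3ac it gave 4.2–5.73% (14.1–14.9%) gained and 7.63–9.92% (4.17–5.05%) lost in *hda1∆*, and 6.49–8.40% (11.7–14.3%) gained and 4.58–8.40% (6.5–9.53%) lost in *tup1∆*. The share at 50% coverage in Hda1(arb2∆)-18myc ranged over 6.49–52.3% in the spike-in set and 26.3–43.9% in the other, and in untagged spike-in libraries over 0.763–18.7%. The highest value of each of these 3 came without replicate 2, which held fewer peaks. The libraries whose absence moved an acetylation share by over 1.5 times were each of the 4 for H4ac losses in *hda1∆* with spike-in, *hda1∆* replicate 2 for those without, WT replicate 1 for H4ac losses in *tup1∆*, *hda1∆* replicate 1 for H3ac gains and WT replicate 2 for H3ac losses in *hda1∆*, *tup1∆* replicate 2 for H3ac gains in *tup1∆*, and *tup1∆* replicate 1 and WT replicate 2 for its losses. A margin asked of fewer libraries is easier to meet. Members with the highest point of a peak inside, an alternative chosen after seeing the data, gave 6.16% (5.33%) losing H4ac in *tup1∆* without spike-in. They gave 0% (0.0333%) at 50% coverage in both untagged spike-in libraries. Leaving out a hand-written list of near-identical copies, also chosen after seeing the data, kept each share within 1.5 times. The planned comparison of copies by protein identity was not run, as no protein sequences were used here. Asking the margin only within pairs of same-numbered libraries (a replicate block) kept every share within 1.5 times. For H4ac in *hda1∆* it gave 6.87% (4.87%) gained and 2.29% (12%) lost with spike-in, and 8.4% (4.85%) and 2.29% (13.3%) without. Peak lists hold no counts, so depth limits what was called to an unknown degree.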
